A study of Mus musculus with 12 samples.

Results

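Dopamine, noradrenaline, adrenaline and serotonin are monoamines, and with histamine they form a small set of transmitters that a few compact groups of neurons release over wide areas of the brain. In the hypothalamus, dopamine neurons of the arcuate nucleus restrain prolactin release from the pituitary, and the histamine neurons of the tuberomammillary nucleus, at its caudal edge, promote waking. Noradrenaline and serotonin reach the hypothalamus in axons whose cell bodies lie in the brainstem, so the receptors for them are made locally while most of their synthetic enzymes are not.

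The genes described are 10 of the 43280 rows of a count table, taken by symbol. They encode the enzymes Th, Ddc and Hdc, the transporters Slc18a2 and Slc6a3, and the receptors Drd2, Htr2c, Htr1a, Adra1b and Hrh3. The RNA came from the hypothalamus of male C57/Bl6 mouse pups on postnatal day 6. In the modified maternal separation group (MMS, n = 6) pups were kept apart from the dam for a short period on consecutive days, were repeatedly turned on their backs while apart, and were killed straight after the last session, whereas control pups (n = 6) stayed in the nest. Males of each litter were split between the groups, so littermates may be among the libraries, which the labels do not identify, and the tissue is the whole dissected hypothalamus rather than sorted neurons. The question was whether MMS was accompanied by altered expression of these genes.

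Each library was built from the 3' end of polyadenylated RNA, so a transcript gives about the same number of reads whatever its length. Levels are given as CPM, counts per 1000000 counts of the scaled library total. The 12 libraries held between 3218777 and 6560620 counts. MMS 2 and MMS 4 stood apart from the rest on the first principal component (57.8 and 46.3, against -14.4 to -3.04 in the other 10 libraries), and their summed level of 15 markers of the ciliated ependymal lining was 25.8 and 44.7 CPM, where the other 10 had 107 to 226 CPM. For each of the 10 genes that was tested, the fold change is therefore also given without these 2 libraries. As a check of the tissue, 9 markers of hypothalamic neurons and progenitors summed to 701 to 1654 CPM in controls and 1132 to 1536 CPM in MMS, with counts of Nkx2-1, a patterning factor of the ventral hypothalamus, in every library (10.5 to 30.5 CPM). Rax, a factor of hypothalamic progenitors and tanycytes, was at 0 in MMS 2 and MMS 4. It was low throughout, with 133 counts over all libraries and 1.09 to 6.04 CPM in the other 10.

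Across the 12 libraries the 10 genes spanned a wide range of levels. Htr2c (82.9 ± 14.7), Hdc (78.7 ± 37.3), Adra1b (76.3 ± 14.5) and Hrh3 (57.3 ± 16.3) were the most abundant, in CPM as mean ± SD (n = 12). Ddc (38.1 ± 9.71) and Slc18a2 (34.3 ± 10.4) followed, above Th (19.4 ± 8.32), and Slc6a3 (5.96 ± 6.40) and Htr1a (5.17 ± 2.25) were the lowest with any counts. Htr2c exceeded Hdc in only 6 of 12 libraries and Hdc exceeded Adra1b in 7, so the order within the top 3 did not hold beyond the spread between libraries, while Adra1b exceeded Hrh3, and Hrh3 exceeded Ddc, in 11 of 12. The same was true of Ddc above Slc18a2 (8 of 12) and Slc6a3 above Htr1a (5 of 12), whereas Slc18a2 exceeded Th and Th exceeded Slc6a3 in all 12. The D2 dopamine receptor gene Drd2 (chr9:49340627-49408177, plus strand) was listed with 0 counts in all 12 libraries. With 55184254 counts in all, a count of 0 allows a level of up to 0.0544 CPM by counting error alone. How its reads were assigned is not given in the sources used here, so the 0 is a property of the table and Drd2 is left without a level or a test.

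No gene among the 9 that passed the count filter was past the threshold between MMS and control pups. In edgeR 0 of 9 passed an adjusted p of 0.05, with adjusted p-values of 0.566 to 0.989, and 0 of 9 had an unadjusted p under 0.05. Over all 13104 genes tested, 0.0% were past the adjusted threshold and 9.08% had an unadjusted p under 0.05 (4.4% lower and 4.68% higher in MMS). DESeq2, which called 0.0534% of all genes, and limma-voom, which called 0.0%, also placed 0 of the 9 past the adjusted threshold, while at an unadjusted p under 0.05 there were 0 in DESeq2 and 2 in limma-voom (Hdc and Hrh3). The CPM of the groups overlapped in all 9, as they did in all but 0.389% of the genes tested. The log2 fold change was below 0 in 8 of 9 genes, with a median of -0.20, where 49.9% of all genes tested were below 0 with a median of 0.0009. Of these 8, Htr2c (-0.0069) and Adra1b (-0.02) were near 0. The sign of Htr2c, Adra1b, Th and Slc18a2 reversed in at least 1 fit that left out 1 library. The intervals of all 9 genes included 0. In the plot of fold changes the interval of Htr2c was the narrowest of the 9 and that of Slc6a3 the widest.

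**Figure D1:**
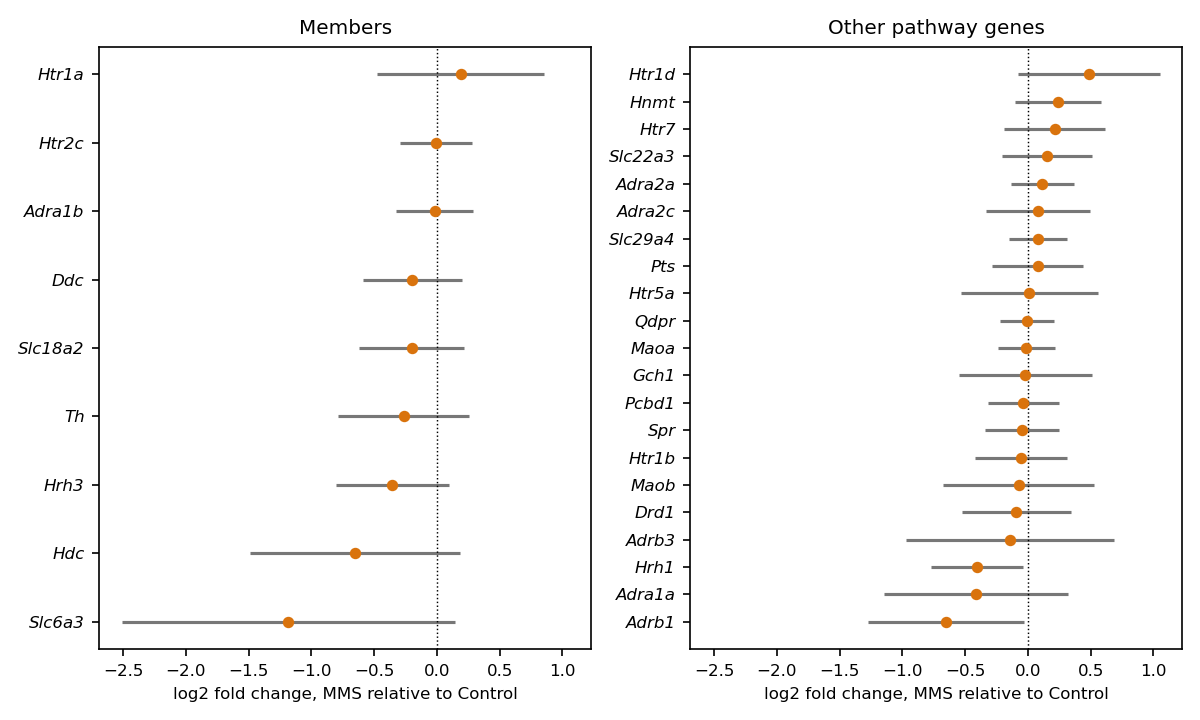
Log2 fold change of MMS relative to control (points) with the 95% interval from edgeR (lines), for the 9 genes tested (left) and the other pathway genes tested, with 1 not shown (right). Slc6a3 and Hdc have the widest intervals on the left, from -2.51 to 0.14 and from -1.49 to 0.19, and all 9 intervals on the left include 0.

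Dopamine synthesis begins with tyrosine hydroxylase (Th, chr7:142892752-142931128, minus strand), the rate-limiting enzyme of all catecholamines. Th measured 13.9 CPM in the lowest control, 16.5 at the median and 44.0 in the highest, and 15, 16.5 and 23.6 CPM in MMS pups. The medians were alike and the ranges overlapped, with control 2 far above the other 11 libraries. MMS differed from control by a log2 fold change of -0.26 (SE 0.25, 95% interval -0.79 to 0.26; edgeR adjusted p = 0.736). Its sign rested on control 2, and without that library it was 0.065 (edgeR adjusted p = 0.921), while without MMS 2 and MMS 4 it was -0.26 (SE 0.32; edgeR adjusted p = 0.964). Aromatic amino acid decarboxylase (Ddc, chr11:11814101-11898144, minus strand) makes dopamine and serotonin from their precursors. Ddc ran from 22.0 through a median of 42.8 to 51.4 CPM in controls and from 23.9 through 35.3 to 50.8 CPM in MMS. The lowest value of either group was that of control 1, and the groups overlapped over nearly their whole range. For Ddc the log2 fold change was -0.20 (SE 0.19, interval -0.59 to 0.20; edgeR adjusted p = 0.745), and -0.01 without MMS 2 and MMS 4. In a whole tissue, fewer dopamine neurons and less of these RNAs per neuron cannot be told apart.

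The vesicular monoamine transporter (Slc18a2, chr19:59260896-59296012, plus strand) loads dopamine, noradrenaline, serotonin and histamine into vesicles and is thus shared by all these neurons. It had 20.2 CPM in the lowest control, 32.8 at the median and 60.9 in the highest, against 27.6, 33.0 and 35.9 CPM in MMS. The MMS libraries were close together and lay inside the control range, and 2 controls, 2 and 5, lay above all MMS libraries. On the log2 scale MMS differed by -0.20 (SE 0.20, interval -0.62 to 0.22; edgeR adjusted p = 0.753) and became 0.02 without control 5 (edgeR adjusted p = 0.979) and -0.15 without MMS 2 and MMS 4 (SE 0.26; edgeR adjusted p = 0.967). The dopamine reuptake transporter (Slc6a3, chr13:73536747-73578672, plus strand) is the most selective marker of dopamine neurons in the set. Its lowest, median and highest values were 1.6, 3.91 and 23.1 CPM in controls and 0.908, 3.93 and 6.09 CPM in MMS. The medians were again alike. Controls 2 (23.1 CPM) and 5 (14.2 CPM) lay above all MMS libraries, and MMS 2 (1.34 CPM) and MMS 3 (0.908 CPM) lay below all controls. At -1.18 (SE 0.62, interval -2.51 to 0.14; edgeR adjusted p = 0.566), its log2 fold change was the largest in size of the 9. It was -0.62 without control 2 (edgeR adjusted p = 0.708), -1.11 without MMS 2 and MMS 4 (SE 0.83; edgeR adjusted p = 0.964) and -0.81 in limma-voom, and it rested on 3 to 92 counts per library.

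**Figure D2:**
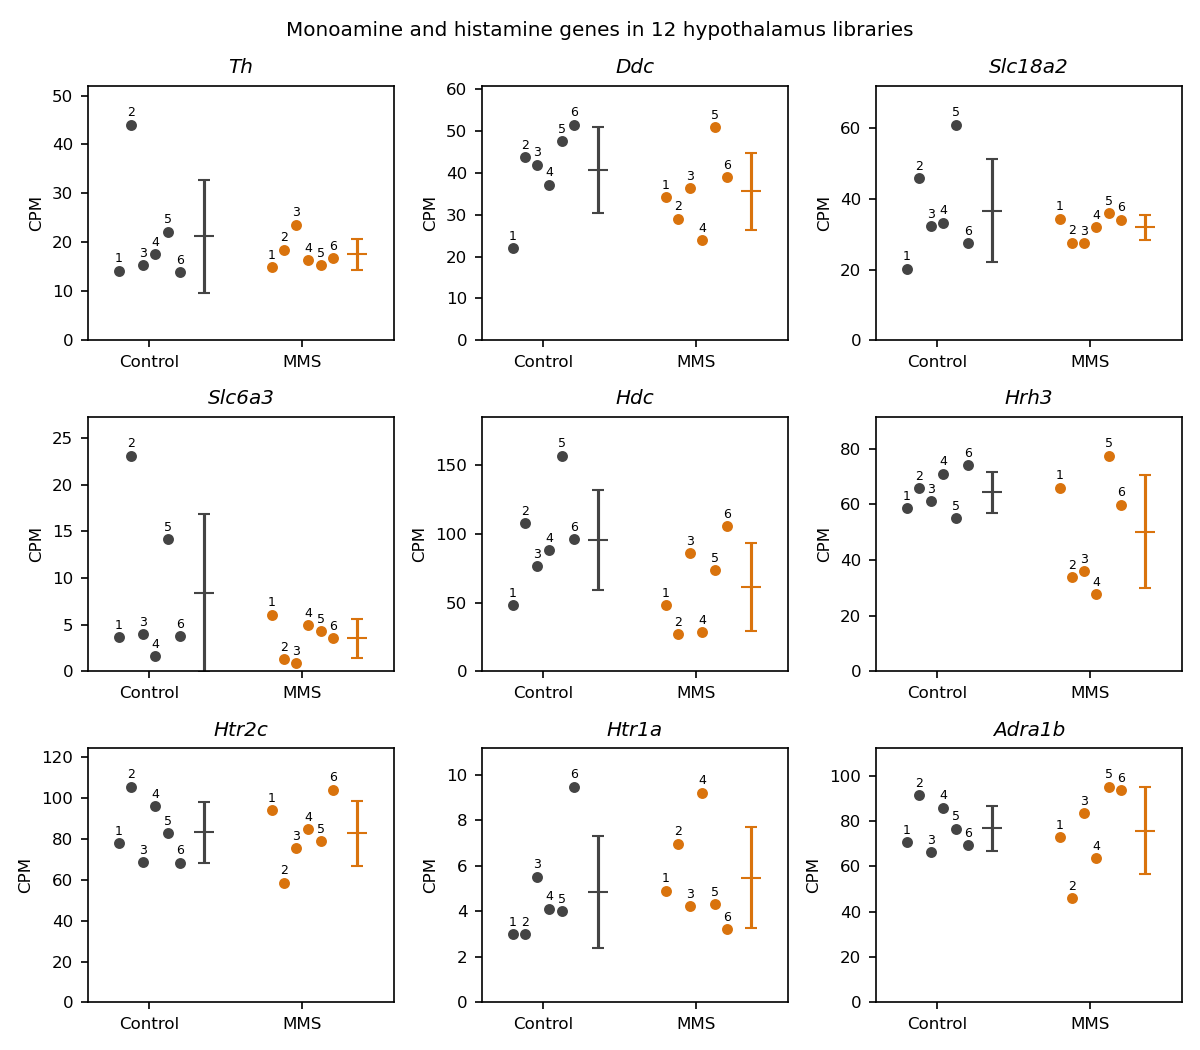
CPM of the 9 genes with counts in each of the 6 control (grey) and 6 MMS (orange) libraries, numbered by replicate, with the group mean and SD beside the points (the SD bar of Slc6a3 in controls is cut at 0). Th and Slc6a3 peak in control 2, at 44.0 and 23.1 CPM, and Hdc and Hrh3 are lowest in MMS 2 and MMS 4, at 27.1 to 28.4 and 27.7 to 33.8 CPM.

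Because controls 2 and 5 carried the high values of the transporters, markers of the regions that hold monoamine neurons were set beside them. The summed level of 6 mammillary markers, among them Foxb1 and Lmx1a, was highest in control 5 (296 CPM) and control 2 (253 CPM) of all 12 libraries, and ran from 57.5 to 296 CPM in controls and from 79.0 to 219 CPM in MMS. The sum of 9 arcuate and ventromedial markers was also highest in control 5 (392 CPM), whereas control 2 (139 CPM) was the lowest control. It ran from 139 to 392 CPM in controls and from 83.0 to 357 CPM in MMS, with MMS 4 (83.0 CPM) and MMS 2 (101 CPM) the lowest of all 12, and 7 of its 8 tested genes had a log2 fold change below 0 (median -0.42). Of the 6 mammillary markers, 5 had a log2 fold change below 0. It was above 0 in 7 of the 8 tested markers of the general hypothalamic list (median 0.28) and in 5 of 7 thalamic markers. In each of these lists 0 genes passed the threshold. Of 6 midbrain dopamine markers, Foxa1 had 443 counts over all libraries, Foxa2 109, En1 92, Aldh1a7 51, En2 14 and Pitx3 10, and the sum of all 6 ran from 4.21 to 21.3 CPM in controls and from 2.12 to 21.6 CPM in MMS. Controls 5 (21.3 CPM) and 2 (19.8 CPM) were the highest controls for this sum, while MMS 4 (21.6 CPM) was the highest of all 12. In MMS 4, Foxa1 alone gave 16.85 CPM of the sum. En1 was highest in control 2 (4.348 CPM), MMS 1 (3.277 CPM) and control 5 (3.085 CPM), with 1.951 CPM in MMS 4. Foxa2 was highest in control 4 (3.438 CPM) and Pitx3 in MMS 2 (1.075 CPM). Kiss1 among the arcuate markers had 0 counts. The part of the dissected region in the spread of Th, Slc18a2 and Slc6a3 was not tested.

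The upstream sequences of Th and Slc18a2 are shown because both carry the cyclic AMP response element TGACGTCA, the site bound by CREB, which mediates the response of neuronal genes to activity. All 10 genes matched the RefSeq promoter table (build GRCm38.p6), which gave them 12 windows of 300 bases. The element, which reads the same on both strands, was found in these 2 windows of the 12 and in 1.79% of all 32851 windows. Its shorter form CGTCA, searched on both strands and contained in it, was found in the same 2 windows and in 20.8% of all. The sequences run from 250 bases before the RefSeq start to 10 bases from it, with the element in capitals. The gene coordinates given above are from GENCODE, whose starts differ from these. The Slc18a2 window ends before the GENCODE start of that gene (59260896), and the Th window lies inside the GENCODE interval of Th.
Th, chr7:142899986-142900245, minus strand: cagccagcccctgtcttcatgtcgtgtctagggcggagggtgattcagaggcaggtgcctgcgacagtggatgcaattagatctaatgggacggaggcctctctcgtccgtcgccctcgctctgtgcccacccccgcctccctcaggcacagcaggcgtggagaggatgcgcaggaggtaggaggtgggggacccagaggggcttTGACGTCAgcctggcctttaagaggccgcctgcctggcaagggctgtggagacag
Slc18a2, chr19:59260628-59260887, plus strand: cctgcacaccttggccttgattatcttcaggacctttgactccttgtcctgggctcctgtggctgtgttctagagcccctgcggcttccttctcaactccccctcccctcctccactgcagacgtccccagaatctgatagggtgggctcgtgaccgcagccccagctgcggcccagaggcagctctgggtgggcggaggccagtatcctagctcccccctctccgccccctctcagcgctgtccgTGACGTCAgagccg
In Th the element began 45 bases before the RefSeq start. In Slc18a2 it began 4 bases before the RefSeq start and ran across it, whereas it lay wholly upstream of the GENCODE start. The motif AAAGGTCA bound by Nr4a receptors, searched on both strands, was present in 1 window, that of Ddc, and in 1.51% of all windows, and the AP-1 motif TGACTCA was present in 1, that of Adra1b, and in 5.2%. Matches are given as a description of these windows, and the RNA levels of Th and Slc18a2 did not pass the test.

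Histidine decarboxylase (Hdc, chr2:126593667-126619299, minus strand) makes histamine and defines the tuberomammillary neurons. It measured 48.0 CPM in the lowest control, 92.4 at the median and 157 in the highest, and 27.1, 61.2 and 106 CPM in MMS pups. MMS 2 (27.1 CPM) and MMS 4 (28.4 CPM) lay below all controls, the other 4 MMS libraries lay within the control range, and controls 2 and 5 lay above all MMS libraries. The group means were 95.7 ± 36.3 and 61.6 ± 32.2 CPM (SD, n = 6 per group). Hdc differed by -0.65 on the log2 scale (SE 0.38, interval -1.49 to 0.19; edgeR adjusted p = 0.606). It was -0.29 without MMS 2 and MMS 4 (edgeR adjusted p = 0.964), where the mean of the remaining 4 MMS libraries was 78.6 ± 24 CPM (SD, n = 4), and the unadjusted p was 0.116 in edgeR and 0.0191 in limma-voom (adjusted p = 0.469). Mast cells also make histamine, and of 7 mast cell markers Tpsab1 and Fcer1a had 0 counts. Over all libraries Cpa3 had 4 counts, and the most counted markers were Tpsb2 (27 counts) and Cma1 (21 counts). The sum of the 7 reached at most 2.15 CPM in controls and 3.75 CPM in MMS. Controls 5 and 2 were highest for both Hdc (157 and 108 CPM) and the mammillary markers (296 and 253 CPM) among the controls, and MMS 2 had the lowest sum of these markers in its group (79.0 CPM). MMS 4 had 219 CPM of these markers with 28.4 CPM of Hdc, and control 6 had 57.5 CPM with 96.5 CPM of Hdc. The part of the mammillary content of a library in the Hdc values was not tested.

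The H3 receptor (Hrh3, chr2:180099465-180104488, minus strand) sits on histamine neurons and on other terminals and holds back the release of histamine and other transmitters. Its lowest, median and highest values were 55.1, 63.5 and 74.2 CPM in controls and 27.7, 48.0 and 77.5 CPM in MMS. The controls were close together, while MMS 2, MMS 3 and MMS 4 lay below all of them and MMS 5 lay above all of them. Means were 64.3 ± 7.35 and 50.2 ± 20.3 CPM (SD, n = 6 per group). For Hrh3 the log2 fold change was -0.36 (SE 0.21, interval -0.81 to 0.09; edgeR adjusted p = 0.604), and -0.09 without MMS 2 and MMS 4 (edgeR adjusted p = 0.967). Its unadjusted p was 0.112 in edgeR, 0.0396 in limma-voom and 0.0128 in edgeR without MMS 5, where the log2 fold change was -0.52 (edgeR adjusted p = 0.281). An antisense gene at the end of Hrh3, Gm17180, had 0 counts.

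Hdc and Hrh3 thus shared their low libraries, MMS 2 and MMS 4, with the ependymal markers and with the arcuate and ventromedial markers (101 and 83.0 CPM). Adra1b, which is not a histamine gene, was also lowest in MMS 2 (45.9 CPM) and MMS 4 (63.5 CPM). Of the 12 ependymal markers tested, 0 passed the threshold and 12 had a log2 fold change below 0, with a median of -0.79. MMS 3, where Hrh3 was 36 CPM and Hdc 86.0 CPM, had 155 CPM of ependymal markers. The part of the ependymal or arcuate content of a library in these values was not tested.

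**Figure D3:**
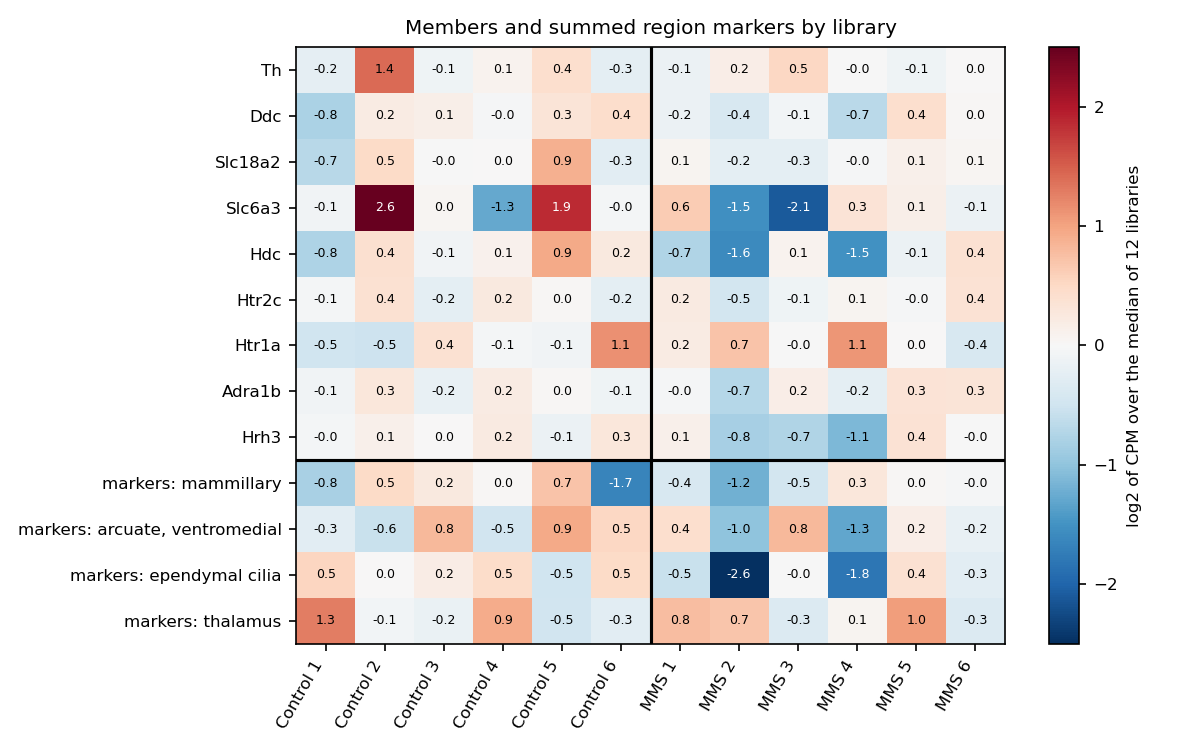
Log2 of the CPM of each gene with counts (upper rows) and of the summed CPM of 4 sets of region markers (lower rows) over the median of the 12 libraries, by library. MMS 2 and MMS 4 are low for Hdc, Hrh3 and the ependymal markers, and controls 2 and 5 are high for Slc6a3, Slc18a2 and the mammillary markers.

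The remaining receptors are made by the neurons that receive monoamine axons. The serotonin receptor 2C (Htr2c, chrX:146962513-147197277, plus strand) acts on feeding circuits of the hypothalamus. Its levels were 68.3, 80.3 and 105 CPM in the lowest, median and highest control and 58.6, 81.8 and 104 CPM in MMS. The ranges nearly coincided, with only MMS 2 below the controls. Htr2c had a log2 fold change of -0.0069 (SE 0.14, interval -0.29 to 0.28; edgeR adjusted p = 0.989), and it was 0.09 without MMS 2 and MMS 4. Choroid plexus also expresses Htr2c strongly. Of 9 choroid plexus markers, summed levels were 32.6 to 1803 CPM in controls and 33.5 to 47.0 CPM in MMS, the highest being that of control 3, where transthyretin (Ttr) reached 1735 CPM while Htr2c was 68.4 CPM, among the lowest of the controls. What choroid plexus added to the Htr2c values was not tested.

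The alpha-1B adrenergic receptor (Adra1b, chr11:43774606-43901210, minus strand) transmits the excitatory action of noradrenaline. Its lowest, median and highest values were 66.3, 73.7 and 91.3 CPM in controls and 45.9, 78.3 and 95.1 CPM in MMS. The MMS group was wider on both sides, with MMS 2 and MMS 4 below all controls and MMS 5 and MMS 6 above them. Adra1b had a log2 fold change of -0.02 (SE 0.15, interval -0.33 to 0.29; edgeR adjusted p = 0.98), and 0.18 without MMS 2 and MMS 4 (edgeR adjusted p = 0.964). Adra1b is also expressed in the thalamus, and the sum of 7 thalamic markers ran from 214 to 727 CPM in controls and from 236 to 615 CPM in MMS. The highest sum was in control 1, where Adra1b was 70.8 CPM. In MMS the highest sum was in MMS 5, where Adra1b was the highest of all 12 libraries (95.1 CPM). The lowest sum in MMS was in MMS 6, where Adra1b was 93.7 CPM. What thalamic tissue added to the Adra1b values was not tested. The serotonin receptor 1A (Htr1a, chr13:105443639-105448122, plus strand), an inhibitory receptor and the autoreceptor of serotonin neurons, was low throughout. It had 2.99, 4.07 and 9.48 CPM in the lowest, median and highest control and 3.22, 4.62 and 9.22 CPM in MMS, from 10 to 52 counts per library. Control 6 and MMS 4 were the high libraries of their groups and the ranges overlapped. Htr1a had a log2 fold change of 0.19 (SE 0.32, interval -0.48 to 0.86; edgeR adjusted p = 0.859), and -0.21 without MMS 2 and MMS 4 (edgeR adjusted p = 0.967).

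The genes differed widely in how much they varied between pups of a group. The biological coefficient of variation of edgeR, the spread between libraries of a group beyond counting error, was 69.7% for Slc6a3 and 44.7% for Hdc. These exceeded the values of 99.7% and 98.1% of the genes tested, whose median was 19.3%. It was 33.7% for Htr1a, 28.4% for Th, 25.2% for Hrh3, 23.6% for Slc18a2 and 22.4% for Ddc. Adra1b (18.1%) and Htr2c (17%) lay below the median of all genes. The highest library exceeded the lowest 25.4-fold for Slc6a3 and 5.79-fold for Hdc, but 1.80-fold for Htr2c. In the plot of variation against level Hdc lay above Adra1b and Htr2c, although all 3 had nearly the same mean CPM.

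**Figure D4:**
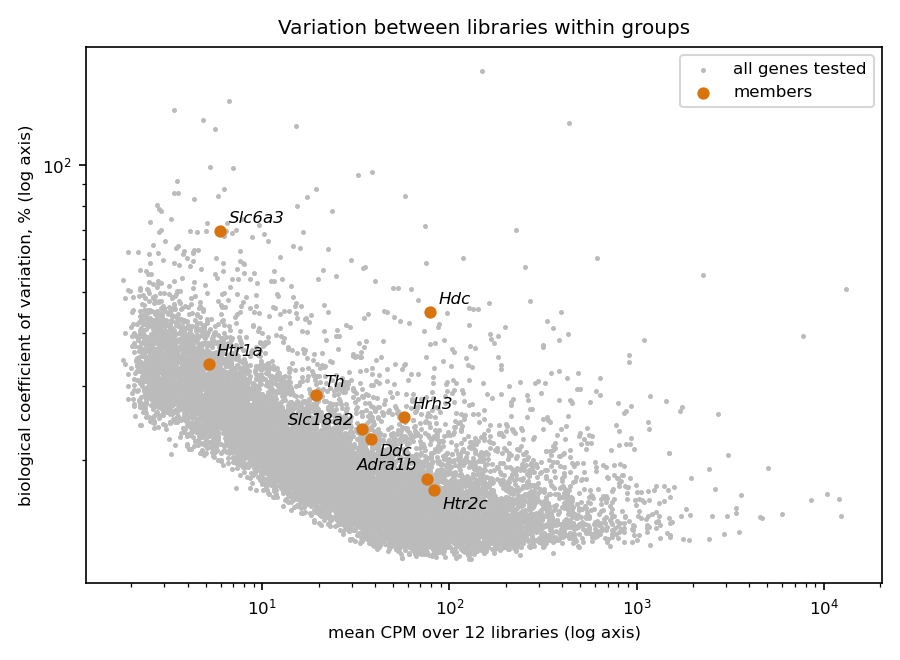
Biological coefficient of variation (per cent, log axis) against mean CPM over 12 libraries (log axis) for all 13104 genes tested (grey) and the 9 genes described (orange, named). Hdc (44.7%) lies well above Adra1b (18.1%) and Htr2c (17%) at a similar mean level, and Slc6a3 (69.7%) is the most variable of the 9.

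Whether the genes moved together was examined over the 10 libraries other than MMS 2 and MMS 4, both groups included, in 36 pairs. No pair passed an adjusted p of 0.05 (permutation test, smallest adjusted p = 0.328 for r and 0.413 for rho), and 5 pairs had an unadjusted p under 0.05 for r. The pair of transporters, Slc18a2 and Slc6a3, had r = 0.69 (permutation p = 0.0298, adjusted 0.328) and rho = 0.71 (permutation p = 0.0271, adjusted 0.413), with r = 0.82 when the 2 libraries farthest from the median of Slc18a2 were left out. Slc18a2 and Hdc had r = 0.71 (permutation p = 0.0216, adjusted 0.328) and rho = 0.49 (permutation p = 0.154, adjusted 0.462), and their r fell to 0.10 without the 2 farthest libraries, so that this relation rested on those libraries. Htr2c and Htr1a had r = -0.64 (permutation p = 0.033, adjusted 0.328), and -0.47 without the 2 libraries farthest from the median of Htr2c. The remaining pairs were Ddc and Hdc (r = 0.67, permutation p = 0.036) and Htr2c and Adra1b (r = 0.65, permutation p = 0.049). Without the 2 libraries farthest from the median of the first gene, their r was 0.49 and 0.41.

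Over the whole table, the gene whose pattern was most like each of the 9 was sought among 11745 others with a mean of at least 20 counts, by Pearson's r of log2 CPM. The r is given over all 12 libraries, then over the 10 without MMS 2 and MMS 4, and is a description only. For Hdc the closest genes were Slc35a1 (0.96 and 0.90), Samhd1 (0.95 and 0.87) and Klhl7 (0.94 and 0.87). For Hrh3 they were Lrrc17 (0.96 and 0.90), Tssc4 (0.96 and 0.94) and 2610507B11Rik (0.96 and 0.88). Slc6a3 was followed most closely by Fam78b (0.91 and 0.97), then Cln6 (0.84 and 0.93) and Tab1 (0.84 and 0.86), and Slc18a2 by Pfdn2 (0.87 and 0.87), Adcyap1 (0.84 and 0.85) and Sepw1 (0.82 and 0.85). Adcyap1 encodes the neuropeptide PACAP. Of the other enzymes, the genes were Ogfod3 (0.85 and 0.86), Gnpnat1 (0.82 and 0.83) and Trappc12 (0.82 and 0.84) for Th, and Rec8 (0.87 and 0.83), Nop16 (0.87 and 0.82) and Alg1 (0.86 and 0.83) for Ddc. Among the other receptors the genes were Cstf2t (0.94 and 0.89), Fnbp1 (0.94 and 0.81) and Slc30a1 (0.93 and 0.85) for Adra1b, Tubb2a (0.88 and 0.85), 3110057O12Rik (0.87 and 0.87) and Sipa1l3 (0.86 and 0.87) for Htr2c, and Spry4 (0.90 and 0.84) and Sec61a2 (0.88 and 0.81) for Htr1a. None of these closest genes was 1 of the 10.

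The other genes of monoamine and histamine handling were taken from a fixed list of 47, of which 22 passed the count filter. Of these 0 rose and 0 fell past the adjusted threshold, with edgeR adjusted p-values of 0.543 to 0.990 and a median log2 fold change of -0.0089. At an unadjusted p under 0.05 there were 2, both lower in MMS, or 9.09% of the 22, which is close to the 9.08% of all genes (4.4% for lower genes alone). DESeq2 and limma-voom also gave 0 past the adjusted threshold.

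Genes that mark the brainstem neurons were near 0. Tph2, the neuronal enzyme of serotonin synthesis, had 22 counts over all libraries and the serotonin transporter Slc6a4 had 41, and Fev, a factor of serotonin neurons, had 0. Dbh, which turns dopamine into noradrenaline, had 9 counts, and the noradrenaline transporter Slc6a2 had 6. The 5 tested genes that supply the tetrahydrobiopterin cofactor of Th (Gch1, Pts, Spr, Qdpr and Pcbd1) had log2 fold changes from -0.05 to 0.08 and adjusted p-values of 0.896 to 0.988 in edgeR. Among the breakdown enzymes, Maoa, the oxidase of serotonin and noradrenaline, was at 100.2 ± 7.81 CPM in the control group and 99.4 ± 14.2 CPM in the MMS group (SD, n = 6 per group), a log2 fold change of -0.01 (interval -0.24 to 0.21). Maob, an oxidase also found in histamine neurons and astrocytes, had 20.7 ± 7.19 and 19.97 ± 9.56 CPM (log2 fold change -0.07, interval -0.68 to 0.53). Hnmt, which inactivates histamine in brain, had 15.5 ± 2.62 and 18.2 ± 2.69 CPM, a log2 fold change of 0.24 (interval -0.10 to 0.58; edgeR adjusted p = 0.637).

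Among the other receptors, the genes with the smallest p-values were lower in MMS but short of the threshold. The H1 histamine receptor Hrh1, an excitatory receptor, ranged from 13.3 to 21.5 CPM in the control pups and from 10.2 to 14.5 CPM in MMS, so that 3 of 6 MMS libraries lay below all controls. Its log2 fold change was -0.40 (SE 0.18, interval -0.77 to -0.04; edgeR unadjusted p = 0.0325, adjusted p = 0.543). The beta-1 adrenergic receptor Adrb1 measured 3.26 to 7.96 and 1.96 to 3.51 CPM, with a log2 fold change of -0.65 (SE 0.30, interval -1.27 to -0.03; edgeR unadjusted p = 0.0395, adjusted p = 0.543), and 3 of 6 MMS libraries were again below all controls. Without control 2 the unadjusted p of Hrh1 in edgeR was 0.0890 (log2 fold change -0.32), and without control 1 that of Adrb1 was 0.153 (-0.44). Without MMS 2 and MMS 4 the unadjusted p in edgeR was 0.128 for Hrh1 (-0.31) and 0.0595 for Adrb1 (-0.71). Among genes lower in MMS the next smallest p was that of Adra1a, an alpha-1 receptor, at -0.41 (SE 0.35; edgeR adjusted p = 0.708), which was -0.26 without control 2 and -0.72 without MMS 2 and MMS 4. On the higher side the smallest p-values were those of the serotonin receptor Htr1d (0.49, SE 0.27; edgeR adjusted p = 0.584), Hnmt, and the serotonin receptor Htr7 (0.21, SE 0.19; edgeR adjusted p = 0.725). Htr7 was 0.12 without control 4, 0.37 without control 1 and 0.096 without MMS 2 and MMS 4. The D1 dopamine receptor Drd1, listed under its older symbol Drd1a, was counted in all libraries where Drd2 was not. It had 11.9 ± 2.59 CPM in controls and 11.3 ± 2.76 CPM in MMS (log2 fold change -0.09, interval -0.53 to 0.34; edgeR adjusted p = 0.895). Of 7 markers of the striatum, a region rich in dopamine receptors, the sum ran from 127 to 189 CPM in controls and from 136 to 160 CPM in MMS.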

How the data were processed

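The authors prepared 3' mRNA libraries from total RNA (QuantSeq kit), sequenced them on the Ion Proton platform and aligned the reads to mm10 in Torrent Suite. They deposited raw counts per gene, 1 column per library, without normalization or pooling. For the counting tool, its use of strand and its annotation nothing was stated (not given in the sources used here), so reads shared between overlapping genes cannot be assigned. Of 43280 rows, 27 carried date-like symbols (0.175% of counts) and were kept as unnamed rows. Within groups the chi-square per degree of freedom between libraries was 4.04 to 31.5, so all 12 were counted as separate samples. The authors state that the neonatal samples of a group came from independent litters. Whether control and MMS pups shared a litter is not labelled, so p-values treat pups as independent.

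The test was edgeR 4.0.16's quasi-likelihood test of the counts (R 4.3.3, robust, TMM scaling, minimum count 10, minimum total 15) over all 13104 genes that passed, two-sided, with Benjamini-Hochberg adjustment and a threshold of 0.05. The pipeline was tested on simulated data. Alternatives were DESeq2 1.42.0, limma-voom 3.58.1, other size factors, no filter, a replicate block, and leaving out libraries. CPM used the TMM-scaled totals, and log2 CPM a prior count of 2. Correlations used 100000 permutations. The floor behind a count of 0 covers counting error only, since reads carry no molecular identifiers. Coordinates are from GENCODE M21 on the same build, 1-based, and 91.1% of symbols matched.

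The 10 genes, the pathway list and the marker lists were chosen with earlier results of these data known. The genes named were all 10, fixed pathway genes of synthesis, transport and breakdown, Drd1, the 3 pathway genes of lowest p among those higher and among those lower in MMS, and the 3 genes most like each member. Fev and the cofactor genes were named as well. Of the genes under these rules, 2 are not reported here, although counts over a list include them.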

Additional observations from a re-analysis of the deposited data

Results flagged for a closer look

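Th in control 2, at 44.0 CPM, lay far from the other controls, of which the next was at 22.2 CPM. The gap was 0.724 of the range of the 6 controls, above Dixon's 95% critical value for 6 values. Of 20 sets of 6 values examined (9 genes with counts and the library totals in each group), this was the 1 such set, and chance gives about 1. The log2 fold change of Th was -0.26 with control 2 and 0.06 without it.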

How the results depend on the processing

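The count of the 10 genes and of the pathway genes past the adjusted threshold stayed at 0 in edgeR, DESeq2, limma-voom and all other settings run. The number of the 10 genes at an unadjusted p under 0.05 was 0 in edgeR, 0 in DESeq2 and 2 in limma-voom (Hdc and Hrh3), and it ran from 0 to 1 over the fits that left out 1 library (Slc6a3 without control 4, Hrh3 without MMS 5, Hdc without MMS 6). Over all genes, 0 were past the threshold in edgeR, 7 in DESeq2 and 5 without MMS 2 and MMS 4. Without MMS 2 and MMS 4 the log2 fold change reversed for Htr2c (0.090), Htr1a (-0.21), Adra1b (0.18), Maoa (0.043), Maob (0.19) and Drd1 (0.12), and without the count filter for Htr2c (0.0050) and Maoa (0.00037). Over the fits without 1 library the values ran from -0.36 to 0.065 for Th, -0.32 to 0.020 for Slc18a2, -0.081 to 0.082 for Htr2c, -0.030 to 0.49 for Htr1a, -0.087 to 0.099 for Adra1b, -0.055 to 0.042 for Maoa, -0.28 to 0.16 for Maob and -0.20 to 0.0059 for Drd1. They kept their sign for Ddc (-0.32 to -0.09), Slc6a3 (-1.40 to -0.62), Hdc (-0.87 to -0.44) and Hrh3 (-0.52 to -0.22), and for Hrh1 (-0.45 to -0.32), Adrb1 (-0.73 to -0.44), Adra1a (-0.56 to -0.26), Htr1d (0.35 to 0.59), Hnmt (0.18 to 0.31) and Htr7 (0.12 to 0.37). The causes were not tested.

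Whether equal replicate numbers mark littermates is not labelled, and weak correlations between libraries could not settle it. Same-numbered libraries had correlations of -0.05 to 0.12 and 2 of 6 numbers correlated best with their own. With the replicate block, 0 of the 10 genes were past the threshold and Hdc was -0.71 and Hrh3 -0.44. Low counts limited genes such as Slc6a3, Htr1a and Adrb1, and Drd2 had no counts to test.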
